A study of Dendrobium nobile with 12 samples.

Results

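The 200 shortest gene models expressed throughout the orchid Dendrobium nobile have coding lengths of 153 to 264 bp, enough for 51 to 88 codons with the stop codon. They were chosen by 2 deposited measures. The coding length of a model is the length that links its read count to its FPKM value (fragments scaled to model length and to the library's total count), and 11654 of the 31672 models had an FPKM of at least 1 in all 12 libraries. The members are the 200 shortest of those 11654. Because the choice used FPKM in every library, their presence in all 6 tissues is part of the choice and is not a result.

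The libraries are messenger RNA profiles of a single cultivar, grown in a greenhouse with no treatment beyond the choice of tissue, with 2 libraries per tissue. The vegetative tissues (root, stem and leaf) are from seedlings of 1 year. The floral ones, among them labellum (the lip, a modified petal), are from seedlings of 2 years. The labels do not say which kind of bud was taken, and bud is placed with the floral tissues here. Organ class and seedling age cannot be told apart. The organism label of each library is D. nobile, while the design text names D. officinale. Whether both libraries of a tissue are from different plants is not in the labels. The p-values below rest on that spread, and it may be technical.

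Short protein-coding genes of plants include those for small ribosomal proteins, small subunits of the respiratory and photosynthetic complexes, and secreted peptides used in defence and in signalling between cells, in flowers among other organs. Gene prediction also yields short models that are fragments of longer genes. The files pair no identifier with a product, so no function is stated for any model below, and the tissue labels could not be compared with marker genes. In whole tissues, a lower value can mean fewer cells that hold a transcript or less of it per cell, which cannot be told apart.

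Library totals ran from 5289212 counts in root replicate 2 to 32040196 in leaf replicate 1; root replicate 1 held 14165136 and each of the other libraries at least 27175842. At the shallowest depth the lowest member count was 1 and the median was 57.5, and 26 members had under 10. Outside root at most 3 members of a library had under 10 counts, and 167 members had at least 10 in all 12 libraries. All 200 members passed the filter on low counts used for the tests below.

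As a group the short models stood well above longer models per unit of coding length. Their median FPKM over the 12 libraries had a median of 80.5 and quartiles of 28.7 and 252, against 23.8, 11.1 and 57.5 for the 11454 other broadly expressed models. Among the members 87 (43.5%) reached a median of 100 FPKM and 11 reached 1000, while 19 (9.5%) were under 10. Of the other broadly expressed models 14.4% reached 100 and 22.1% were under 10. The sources do not say whether reads outside the coding part were counted. If they were, division by a coding length raises the FPKM of short models most, so these levels are not a measure of molecules.

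The level was carried by few members. The 10 most abundant members of each library held between 53.4% and 79.0% of all counts of the group. The most abundant by median FPKM was evm.model.Chr09.2279-gene (237 bp, chromosome 9). Its FPKM values in replicates 1 and 2 were 5809.7 and 10365 in root, 26712 and 27151 in stem, 11924 and 12007 in leaf, 29348 and 34167 in bud, 31244 and 27101 in petal and 18099.7 and 15433 in labellum. It had the highest FPKM of all 31672 models in both stem libraries and ranked between 2 and 9 in the other 10. Among the tissues it was lowest in root and highest in bud, and the bud, petal and stem values lay close together.

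The next members by median FPKM differed more between tissues. In evm.model.Chr17.9-gene (171 bp, chromosome 17) the FPKM values were 5241 and 7868 in root, 1226 and 1341 in stem, 758 and 731 in leaf, 2508 and 2725 in bud, 6998 and 8415 in petal and 5865 and 5577 in labellum. Petal and root were high, leaf was lowest, and the root and petal values overlapped. In evm.model.Chr04.79-gene (186 bp, chromosome 4) the values were 157 and 146 in root, 848 and 856 in stem, 1789 and 1876 in leaf, 15819 and 6348 in bud, 6983 and 6468 in petal and 5394 and 7185 in labellum. Its 6 floral values all lay above its 6 vegetative values, and the bud libraries differed from each other more than bud differed from petal.

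For evm.model.Chr16.202-gene (225 bp, chromosome 16) the FPKM values were 1932 and 3317 in root, 47.5 and 71.5 in stem, 65.5 and 76.6 in leaf, 1856 and 2834 in bud, 9424 and 7856 in petal and 8105 and 6115 in labellum. Stem and leaf were the low tissues, and root overlapped with bud. For evm.model.Chr02.269-gene (222 bp, chromosome 2) the values were 1245 and 1548 in root, 1579.6 and 1638 in stem, 1213 and 1196 in leaf, 4348 and 3764 in bud, 4852 and 4126 in petal and 3251 and 2528 in labellum. Floral values exceeded vegetative ones in this model too, by a smaller factor.

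The short models were more abundant in the floral tissues than in the vegetative ones. The median FPKM over the 200 members was 45.4 and 48.1 in root, 56.4 and 61.1 in stem, and 58.5 and 57.3 in leaf. It was 139 and 125 in bud, 127 and 128 in petal, and 112 and 96.7 in labellum. Floral and vegetative medians did not overlap. In the same libraries the median of the other broadly expressed models stayed between 21.0 and 27.1, and that of the 200 longest had the opposite order, with 13.7 to 21.7 FPKM in vegetative libraries and 3.60 to 7.76 in floral ones. The members' share of library counts followed the same order less closely. As mean ± SD over n = 2 libraries, root was at 1.84% ± 0.501, stem at 1.46% ± 0.0134 and leaf at 1.83% ± 0.0171. Bud was at 2.67% ± 0.157, petal at 2.77% ± 0.103 and labellum at 1.97% ± 0.179. These shares overlapped, since labellum replicate 2 (1.84%) lay below root replicate 2 (2.20%). The most abundant member by FPKM was evm.model.Chr15.1777-gene in both root libraries, evm.model.Chr04.158-gene in both leaf libraries and evm.model.Chr09.2279-gene in the others. Without evm.model.Chr09.2279-gene, the member of highest median FPKM, the shares still overlapped. Root replicate 2 was at 1.95% and leaf at 1.56% and 1.53%, against 1.48% in labellum replicate 2. In a step added after seeing the data, the most abundant member of each library was left out, so the model differed between tissues. The share then ran from 0.820% to 1.30% in vegetative libraries and from 1.48% to 2.10% in floral ones, with no overlap.

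**Figure D1:**
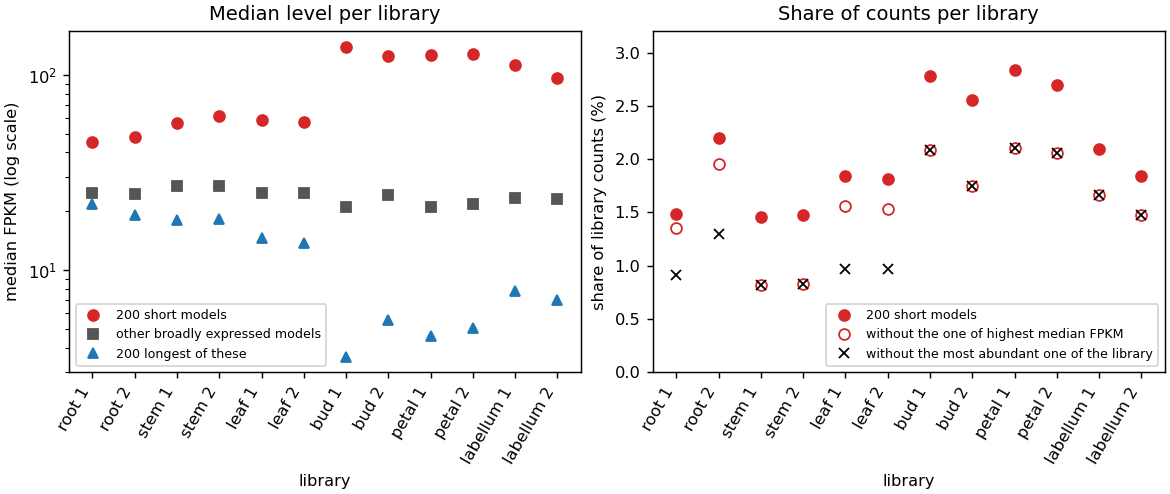
Left, median FPKM per library (log axis) of the 200 short models, of the 11454 other broadly expressed models and of the 200 longest. Right, the share of each library's counts taken by the short models, also without the member of highest median FPKM over all libraries and without the most abundant member of each library by FPKM. The short models' median is at most 61.1 in vegetative libraries and at least 96.7 in floral ones. Their shares overlap, also without the member of highest median FPKM. Without each library's most abundant member they are at most 1.30% in vegetative libraries and at least 1.48% in floral ones.

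Most members varied among the tissues, as did most models. When all 6 tissues were tested together, 169 of the 200 members (84.5%) passed an adjusted p of 0.05, against a background of 81.2% of the 19123 models tested (edgeR's quasi-likelihood test with Benjamini-Hochberg adjustment over all tested models, as in all tests below). The ratio of the highest to the lowest tissue mean had a median of 5.47 over the members and 3.69 over the other broadly expressed models. It was under 2 for 6 members (3%) and for 15.4% of the others, and at least 10 for 44 members (22%) and for 16.1% of the others. Bud held the highest mean FPKM for 101 members, petal for 36, stem for 19, leaf for 16, root for 15 and labellum for 13. For the other broadly expressed models bud was highest in 18.2% and root in 24.7%. By TMM-scaled CPM in place of FPKM, bud was highest for 85 members and petal for 61 (TMM is the scaling by trimmed means). Root was the lowest tissue for 72 members (36%), leaf for 57 (28.5%) and stem for 35 (17.5%), against 25.1%, 21.1% and 7.77% of the other broadly expressed models.

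**Figure D2:**
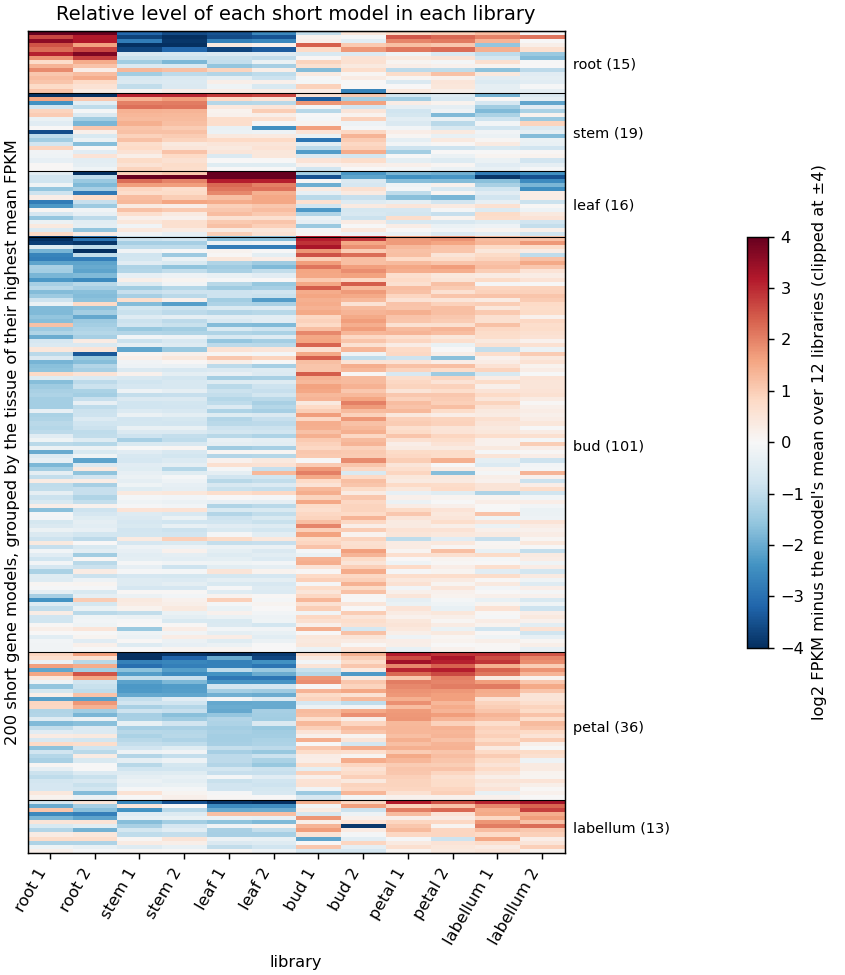
Each row is a model among the 200 short models and each column a library; colour is log2 FPKM minus the model's mean over the 12 libraries, clipped at 4 in either direction. Rows are grouped by the tissue of the highest mean FPKM, with the number of models beside each group: 101 peak in bud and 36 in petal.

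Floral against vegetative tissues gave the widest difference between the short models and all models. With each tissue weighted equally, 124 members (62%) were called higher in floral tissues, where called means an adjusted p under 0.05 and a change of at least 2-fold. The background was 24% of tested models called higher. Called lower were 10 members (5%), against a background of 21%. Of the higher members 16 (8%) changed at least 8-fold, against 7.1% of tested models, and of the lower ones 2 (1%) did, against 4.66%. The median log2 fold change was 1.42 over the members, with quartiles of 0.54 and 2.09, and 0.05 over all tested models. It was positive in 168 members. In 83 members every floral FPKM exceeded every vegetative FPKM (41.5%), against 11.4% of tested models. In 2 members (1%) every floral FPKM was the lower, against 15%. The p-values rest on the spread within tissues, and each class holds 3 tissues with 2 libraries each.

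Coding length itself moved with this comparison across the genome, and the members stood at its end. When the broadly expressed models were ordered by coding length in 58 blocks of 200, the members formed the first block, and none of the other blocks had a higher median log2 fold change than their 1.42. The second block (264 to 318 bp) was at 1.23, the eleventh (585 to 615 bp) at 0.83, the thirty-first (1173 to 1206 bp) at 0.13 and the last full (3954 to 5907 bp) at -1.22. After each library's smooth trend of level with coding length was removed, 41 members were called higher and 35 lower, against backgrounds of 19.1% and 17.6%, and the members' median was 0.21. All 41 were among the 124 members called higher without this step, and all 10 called lower without it were among the 35. The members' shares of 20.5% and 17.5% were then close to the background. The members were chosen by coding length, so the step lowers their log2 fold changes together and by similar amounts. The nesting of the calls and the fall of the median follow from this and are not separate results. Whether the trend lies in the tissues or in how the libraries were made was not tested.

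**Figure D3:**
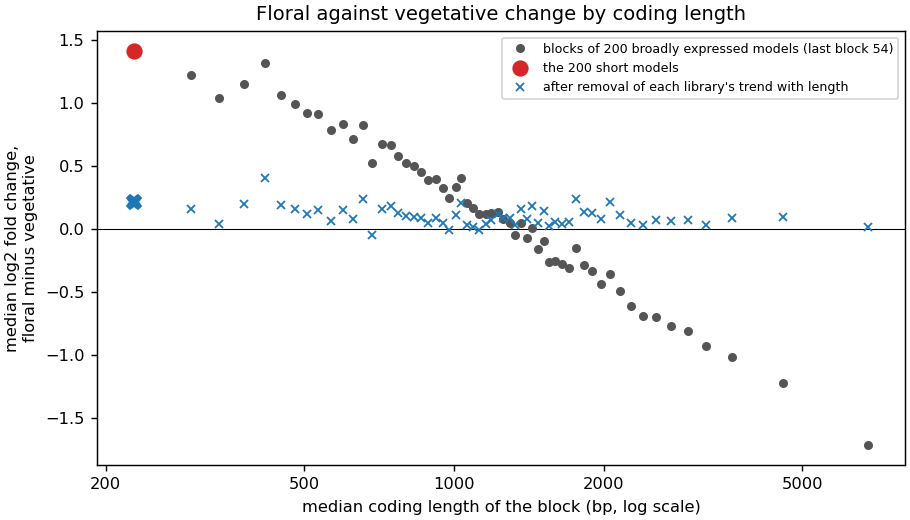
Median log2 fold change, floral minus vegetative, of blocks of 200 broadly expressed models ordered by coding length (log axis; the last block holds 54). The 200 short models, the large red point, are at 1.42 and the blocks descend to -1.72; crosses give the same medians after each library's trend with length was removed, between -0.05 and 0.40.

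The calls were spread over the range of lengths. The members were ordered by length and cut into 4 groups of 50, of which the first spans 153 to 210 bp and the last 246 to 264 bp. Their median log2 fold changes were 1.41, 1.55, 1.48 and 1.26 in this order, and 29, 31, 33 and 31 members were called higher. With the length trend removed, 7, 11, 13 and 10 were called higher and 11, 7, 10 and 7 lower. Of the 124 members called higher, bud was the highest tissue for 73, petal for 34, labellum for 11 and root for 6. For the 10 called lower it was leaf in 6, stem in 2 and root in 2.

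By a fixed rule, the members named for a comparison are the 2 called in each direction with the largest fold, provided that their average log2 CPM (counts scaled to library size) reached 3 and that the values of the compared libraries did not overlap. In evm.model.Chr16.1303-gene (255 bp, chromosome 16) the lowest, median and highest FPKM were 58.5, 231 and 329.7 in the 6 floral libraries and 1.75, 4.18 and 44.5 in the 6 vegetative ones. Petal and labellum were highest, bud followed, and root lay above stem and leaf. It rose in the floral tissues, with a log2 fold change of 5.03 ± 0.28 (SE) with an adjusted p of 2.04e-07. In evm.model.Chr19.186-gene (222 bp, chromosome 19) the lowest, median and highest FPKM were 611, 901 and 2363 in floral libraries and 16.9, 82.6 and 158 in vegetative ones. Bud was the highest tissue and root the lowest, and the classes did not overlap. It rose as well, with a log2 fold change of 4.22 ± 0.17 (SE) with an adjusted p of 3.4e-08. Without the length trend their log2 fold changes were 3.89 and 3.02, both still called.

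Only 1 member met the rule in the lower direction. This was evm.model.Chr03.734-gene (219 bp, chromosome 3), with FPKM values of 1260.1 and 1216 in stem, 1512 and 1570.3 in leaf, 28.0 and 23.3 in root, 4.18 and 10.9 in bud, 8.88 and 9.50 in petal and 3.16 and 4.24 in labellum. Stem and leaf were far above the rest, and root lay between them and the floral libraries. It fell in the floral tissues, with a log2 fold change of -5.60 ± 0.20 (SE) with an adjusted p of 1.61e-08.

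Root differed from stem and leaf in many members, in both directions and at about the background rate for calls of at least 2-fold. Called higher in root were 34 members (17%), against a background of 17%, and called lower 39 (19.5%), against 22.6%. Of the other broadly expressed models 15.2% were called higher and 20.1% lower. The median log2 fold change was -0.17 over the members and -0.16 over all tested models. Members called with a change of at least 8-fold were 13 higher (6.5%), against 7.77% of tested models, and 6 lower (3%), against 9.83%. Tested models include some under 1 FPKM in a tissue, which the choice of members left out, so the 8-fold shares are not like for like. With the length trend removed, 42 of the 200 members were called higher and 24 lower, against 3810 and 3766 of all 19123 tested models. The members' median then changed sign to 0.19.

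In evm.model.Chr14.736-gene (243 bp, chromosome 14) the FPKM values were 294 and 647 in root, against 1.43 and 1.06 in stem and 1.16 and 2.10 in leaf. Root was high in both libraries, the floral values lay between 6.33 and 29.9, and stem and leaf were near the limit of 1 FPKM that the choice of members set. It was higher in root, with a log2 fold change of 8.34 ± 0.52 (SE) with an adjusted p of 9.77e-07, and it also had the largest ratio of root to the next tissue, 20.2, among the members whose root libraries lay above all others. In evm.model.Chr17.1824-gene (237 bp, chromosome 17) the values were 2512 and 3540.4 in root, 30.4 and 23.1 in stem and 32.8 and 36.3 in leaf. Petal (2201 and 1937) and labellum (1551 and 1743) lay below root but far above stem and leaf. It was higher in root, with a log2 fold change of 6.64 ± 0.20 (SE) with an adjusted p of 4.88e-08.

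The members named in the lower direction carry consecutive numbers on chromosome 4. evm.model.Chr04.159-gene (198 bp, chromosome 4) had FPKM values of 9.27 and 22.0 in root, against 3248 and 3205 in stem and 2655 and 2473 in leaf. Stem and leaf were close to each other, and the floral values lay between 104 and 794. It was lower in root, with a log2 fold change of -7.67 ± 0.53 (SE) with an adjusted p of 1.96e-06. evm.model.Chr04.158-gene (186 bp, chromosome 4) had values of 110.1 and 3.05 in root, 288 and 313 in stem and 47175 and 45829 in leaf. Leaf was far above stem, and the root libraries, with 290 and 3 counts, differed widely. It was lower in root, with a log2 fold change of -5.91 ± 0.92 (SE) with an adjusted p of 0.000435; the log2 fold change was -10.26 without root replicate 1 and -5.07 without root replicate 2.

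By FPKM, leaf had the single most abundant member. By share of counts, evm.model.Chr15.1777-gene was ahead in root replicate 2. There the members held 2.20% with that model and 1.30% without it. In both leaf libraries evm.model.Chr04.158-gene had the highest FPKM of all 31672 models, and it took 0.878% and 0.852% of their counts, or 47.6% and 46.9% of the counts of all members. In bud it was at 57.9 and 29.7 FPKM, in petal at 41.1 and 38.9 and in labellum at 21.2 and 27.4. Its leaf mean exceeded that of stem, the next tissue, 155-fold, and it fell in stem against leaf with a log2 fold change of -7.46 ± 1.00 (SE) with an adjusted p of 0.000778. This comparison and that of root share the stem and leaf libraries.

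Stem and leaf otherwise differed in few members. Called higher in stem were 9 members (4.5%), against a background of 7.01%, and called lower 11 (5.5%), against 8.27%. The median log2 fold change was -0.09 over the members and 0 over all tested models; on total counts in place of TMM, the members' median turned to 0.10. These counts depended on single libraries, and those over all tested models also fell without any stem or leaf library. Leaving out stem replicate 1 gave 4 members higher and 5 lower, and leaving out stem replicate 2 gave 5 and 6. Leaving out leaf replicate 1 gave 2 higher and 4 lower, and leaving out leaf replicate 2 gave 1 and 7. Leaving out either petal library also reduced the number called lower. Petal is not compared here, but its libraries enter the filter, the scaling and the shared estimate of spread.

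In evm.model.Chr09.51-gene (234 bp, chromosome 9) the FPKM values were 735 and 753 in stem and 83.4 and 83.9 in leaf. Bud (616 and 564) was close to stem, and the root libraries (33.8 and 137) differed from each other. It was higher in stem than in leaf, with a log2 fold change of 2.97 ± 0.57 (SE) with an adjusted p of 0.00534, and its adjusted p was 0.0558 and 0.0561 without leaf replicates 1 and 2. In evm.model.Chr06.515-gene (237 bp, chromosome 6) the values were 766 and 804 in stem and 209.7 and 205 in leaf. It was higher in stem with a log2 fold change of 1.73 ± 0.50 (SE) with an adjusted p of 0.038, but it missed the threshold in 7 of 23 alternative fits, those without either stem library, either leaf library or either labellum library and that with a replicate block, with an adjusted p of up to 0.191. In evm.model.Chr14.877-gene (237 bp, chromosome 14) the values were 1.18 and 2.17 in stem and 48.7 and 42.7 in leaf, and each of the other libraries lay above stem. It was lower in stem, with a log2 fold change of -4.94 ± 0.78 (SE) with an adjusted p of 0.00189.

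The member named for stem itself is evm.model.Chr05.584-gene (246 bp, chromosome 5), whose stem values of 1104 and 1061 FPKM stood above leaf (319 and 333) by a ratio of 3.32 of the means. In root it was at 140.3 and 118, in bud at 220.5 and 139, in petal at 186 and 185 and in labellum at 90.1 and 172. Members whose 2 libraries of a tissue lay above all other 10 numbered 53 for bud (26.5%), against 11.2% of all tested models, and 19 for petal (9.5%), against 3.73%. They numbered 10 for stem (5%), against 13.9%, and 10 for leaf (5%), against 13%. For root there were 8 (4%), against 16.3%, and for labellum 4 (2%), against 2.88%. The tested models include some under 1 FPKM in a tissue, which the choice of members left out.

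Among the tissues placed as floral here, bud had most peaks, but few members were called between bud and petal with labellum. Called higher in bud than in petal and labellum were 14 members (7%), against a background of 12.6%, and called lower 19 (9.5%), against 6.19%. The median log2 fold change was 0.30 over the members and 0.03 over all tested models, and -0.07 over the members with the length trend removed. With that step 7 of the 200 members were called higher and 29 lower, against 2240 and 1176 of all 19123 tested models. The higher count fell without bud replicate 1 or petal replicate 2 and rose without bud replicate 2, as did that over all tested models.

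evm.model.Chr09.51-gene, described above for stem, had FPKM values of 616 and 564 in bud, 224 and 201 in petal and 114 and 43.3 in labellum. Bud lay above both petal and labellum, and the model was called higher in bud with a log2 fold change of 2.07 ± 0.44 (SE) with an adjusted p of 0.00691. In evm.model.Chr13.1437-gene (258 bp, chromosome 13) the values were 186 and 128 in root, 128 and 127 in stem, 38.3 and 38.2 in leaf, 2473 and 908 in bud, 638 and 568 in petal and 445 and 431 in labellum. The bud replicates differed more than any other pair of this model, though both lay above the other 10 libraries, by a ratio of 2.80 of the bud mean to the petal mean. It was called higher in bud with a log2 fold change of 1.63 ± 0.33 (SE) with an adjusted p of 0.00562. The log2 fold change was 0.61 (adjusted p 0.0303) without bud replicate 1, which is under 2-fold, and 2.21 without bud replicate 2.

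In the lower direction, evm.model.Chr12.318-gene (249 bp, chromosome 12) had FPKM values of 183 and 346 in root, 13.2 and 10.6 in stem, 11.5 and 15.2 in leaf, 27.6 and 12.5 in bud, 302 and 382 in petal and 263 and 157 in labellum. Root, petal and labellum were high, and bud was as low as stem and leaf. It was lower in bud than in the open organs, with a log2 fold change of -3.84 ± 0.45 (SE) with an adjusted p of 0.0003. In evm.model.Chr11.97-gene (228 bp, chromosome 11) the values were 18.9 and 31.5 in root, 25.8 and 17.6 in stem, 40.0 and 28.8 in leaf, 43.5 and 103 in bud, 662 and 718 in petal and 411 and 277 in labellum. Petal was highest, by a ratio of 2.005 to labellum, and the vegetative libraries were low. It was lower in bud, with a log2 fold change of -2.89 ± 0.36 (SE) with an adjusted p of 0.000444.

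Labellum against petal gave the fewest calls among the members. A single member was called higher in labellum (0.5%), against a background of 2.09%, and 4 were called lower (2%), against 1.67%. The members' median log2 fold change was -0.43 and that of all tested models 0; it was positive in 35 members. With the length trend removed the members' median was -0.08. The calls rested on single libraries. Over all tested models the number called also rose without a bud library and fell without a stem, leaf, petal or labellum library. This dependence is thus not particular to the short models. Without either bud library more members were called in both directions. Bud is not compared here, but its libraries enter the filter, the scaling and the shared estimate of spread. Without either stem or either leaf library 0 were called higher and 1 lower, and without either petal library or labellum replicate 2 there were 0 in both directions. Without labellum replicate 1 the members' median log2 fold change was -0.46. DESeq2 with all libraries called 1 member higher and 13 lower, against 704 higher and 697 lower of all 19123 tested models.

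The member called higher in labellum was evm.model.Chr12.475-gene (228 bp, chromosome 12), with FPKM values of 56.7 and 43.6 in labellum, 19.9 and 17.6 in petal, 14.5 and 21.3 in bud, 20.7 and 26.5 in root, 52.4 and 42.6 in stem and 78.6 and 68.9 in leaf. Leaf, stem and labellum were high and the other tissues low. It had a log2 fold change of 1.30 ± 0.31 (SE) with an adjusted p of 0.0403, and it missed the threshold in 9 of 23 alternative fits, among them those without any single library of stem, leaf, petal or labellum, with an adjusted p of up to 0.231. evm.model.Chr18.585-gene (204 bp, chromosome 18) was at 247 and 120.3 FPKM in labellum and 527 and 574 in petal, and highest in root (1402 and 2667). It was lower in labellum, with a log2 fold change of -1.70 ± 0.35 (SE) with an adjusted p of 0.0251, and missed the threshold in 7 of 23 alternative fits, all of them with a stem, leaf, petal or labellum library left out. The vegetative model evm.model.Chr03.734-gene was lower in labellum than in petal at a very low level in both, with a log2 fold change of -1.41 ± 0.34 (SE) with an adjusted p of 0.0438, a call lost in 15 of 23 alternative fits, with an adjusted p of up to 0.193. These were all fits without a stem, leaf, petal or labellum library and 7 others. The member named for labellum, evm.model.Chr16.668-gene (204 bp, chromosome 16), was at 108 and 72.3 FPKM there and 57.5 and 57.4 in petal, a ratio of 1.57 of the means, and was not called (adjusted p 0.313).

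**Figure D4:**
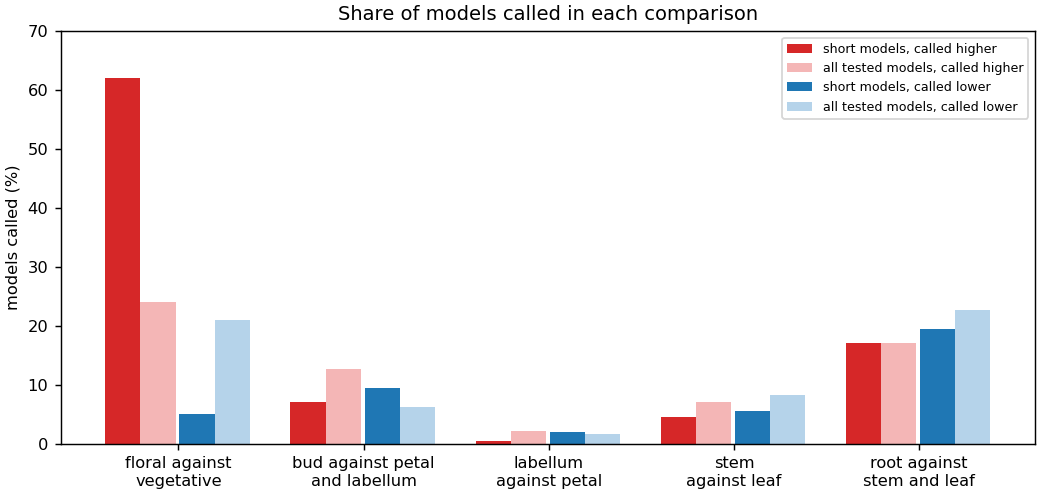
Share of the 200 short models and of all 19123 tested models called higher (first named tissue higher) or lower in each of 5 comparisons, by an adjusted p under 0.05 and a change of at least 2-fold. The 62% of short models called higher in floral tissues stands against 24% of all tested models; in the other comparisons the short models' bars lie between 0.5% and 19.5% and those of all tested models between 1.67% and 22.6%.

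**Figure D5:**
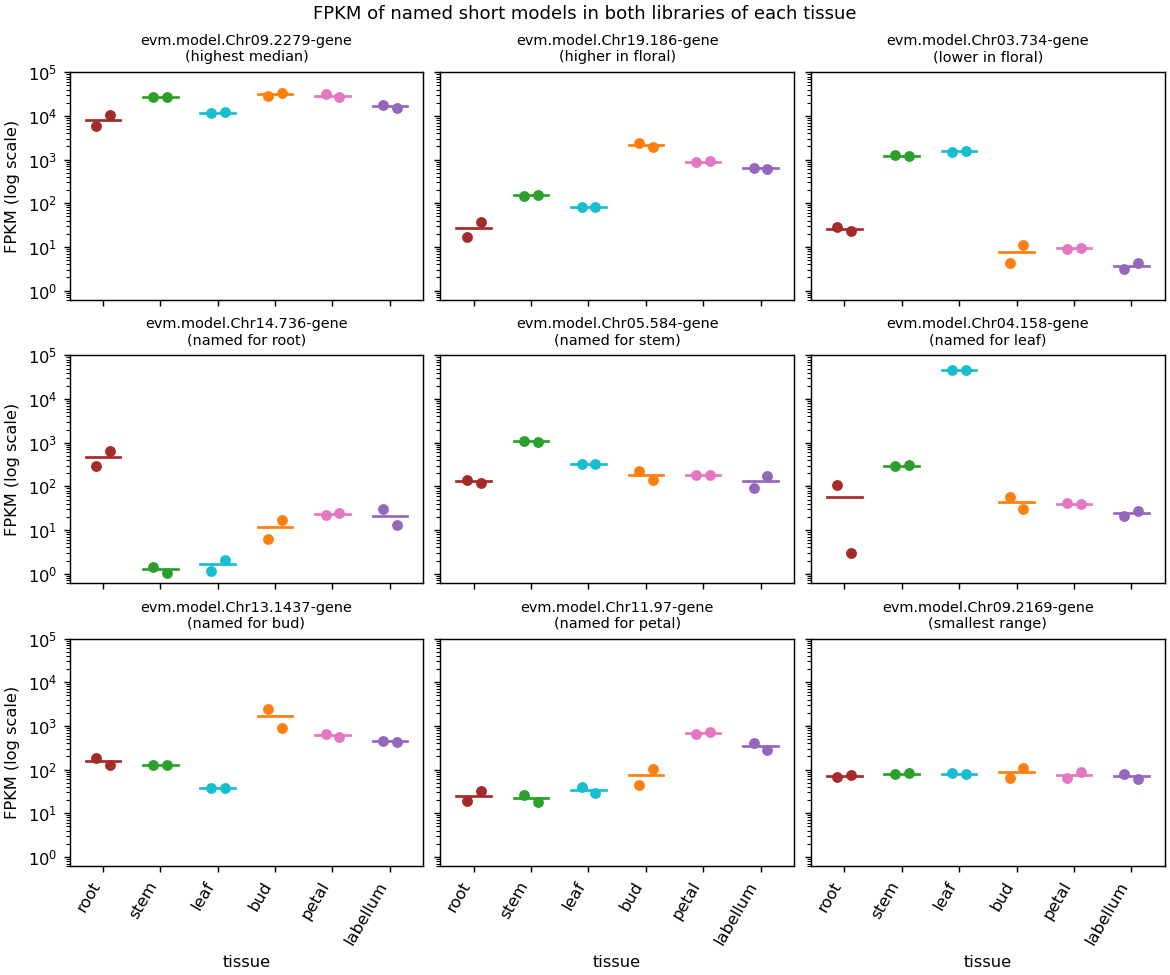
FPKM (log axis) of 9 named short models in both libraries of each tissue; points are libraries and bars their mean. evm.model.Chr04.158-gene reaches 47175 FPKM in leaf, and evm.model.Chr09.2169-gene stays between 61.0 and 111 FPKM in all 12 libraries.

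A few members hardly varied. The smallest range of tissue means was that of evm.model.Chr09.2169-gene (219 bp, chromosome 9), 0.29 on the log2 scale. Its FPKM values were 69.0 and 76.0 in root, 76.8 and 82.2 in stem, 82.4 and 77.8 in leaf, 64.7 and 111 in bud, 62.4 and 85.7 in petal and 78.0 and 61.0 in labellum. The bud, petal and labellum values overlapped each other, root lay just below stem and leaf, and the test found no difference among tissues past the threshold (adjusted p 0.552). evm.model.Chr18.2262-gene (246 bp, chromosome 18) followed with a range of 0.51 and values of 76.0 and 58.4 in root, 69.4 and 78.2 in stem, 71.0 and 69.0 in leaf, 44.4 and 65.4 in bud, 76.5 and 76.6 in petal and 77.6 and 69.6 in labellum, with an adjusted p of 0.116. evm.model.Chr05.936-gene (240 bp, chromosome 5) had a range of 0.71, and its adjusted p for any difference among tissues was 0.00794. The floral minus vegetative log2 fold changes of the 3 models, in the order named, were 0.23, 0.19 and 0.72, and with the length trend removed -0.97, -0.97 and -0.46. The range of evm.model.Chr09.2169-gene and evm.model.Chr18.2262-gene is thus small in FPKM, and their floral difference is larger in size after that step.

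The shortest member, evm.model.Chr02.787-gene (153 bp, chromosome 2), was weakly expressed. Its FPKM values were 3.23 and 1.24 in root, 11.8 and 10.1 in stem, 7.14 and 4.17 in leaf, 4.79 and 3.86 in bud, 2.97 and 2.07 in petal and 4.08 and 8.23 in labellum, and root replicate 2 rested on 1 count. Stem was highest, but the adjusted p for any tissue difference was 0.177. The next by length were of 165 bp. evm.model.Chr03.599-gene (165 bp, chromosome 3) had values of 285 and 329 in root, 476 and 525 in stem, 329 and 319 in leaf, 1604 and 959 in bud, 754 and 748 in petal and 656 and 627 in labellum, and each floral value exceeded each vegetative one. evm.model.Chr06.569-gene (165 bp, chromosome 6) had values of 31.2 and 30.9 in root, 20.1 and 20.1 in stem, 31.2 and 22.6 in leaf, 52.8 and 53.9 in bud, 29.5 and 44.5 in petal and 30.0 and 38.3 in labellum, with bud highest.

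At the length limit, evm.model.Chr10.395-gene (264 bp) was the last member, with a median of 79.8 FPKM, and evm.model.Chr15.1325-gene (264 bp) was the first model left out, with a median of 517 FPKM. The next 2 left out, of the same length, had medians of 111 and 6.01 FPKM. Of 5 broadly expressed models of 264 bp, 2 are members by the order of identifiers. At the FPKM limit, 2 members had a lowest value under 1.1 and 21 under 2, and 4 models of up to 264 bp had a lowest value from 0.9 to just under 1. In all, 518 models of up to 264 bp had a count in some library. Of these 22 were under 1 FPKM in a single library, which was root replicate 2 for 8 of them.

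The members are scattered over the genome, with a few local groups of equal coding length. Each of the 19 chromosomes held between 6 and 18 of them, which was 1.33% to 2.24% of its broadly expressed models, and 1 member lies on a scaffold. Members with consecutive numbers formed 4 pairs, 3 of which had equal coding lengths. Of these, evm.model.Chr18.455-gene and evm.model.Chr18.456-gene, and evm.model.Chr18.458-gene and evm.model.Chr18.459-gene, are of 201 bp, and 7 models of exactly this length, 5 of them members, stand within 3 numbers of these pairs. The median FPKM of these 7 models ran from 2.11 to 228. Just beyond them lies evm.model.Chr18.463-gene, also a member of 201 bp. The third pair is evm.model.Chr11.97-gene and evm.model.Chr11.98-gene, both of 228 bp, with a further model of this length within 3 numbers. evm.model.Chr11.98-gene had FPKM values of 43.8 and 52.0 in petal and 28.7 and 69.9 in labellum, far below its neighbour, and like it was low in stem (1.99 and 5.003) and leaf (2.60 and 2.66). Another member of 228 bp, evm.model.Chr11.103-gene, lies a little further along chromosome 11. The counting of reads with several matches is not given in the sources used here, so values of such equal-length neighbours are uncertain.

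Replicates of the members were closest in stem, leaf and petal. Members that differed at least 2-fold in FPKM between the 2 libraries of a tissue numbered 52 for bud, 36 for root, 20 for labellum, 6 for petal, 5 for leaf and 4 for stem, or 26%, 18%, 10%, 3%, 2.5% and 2%. Among the other broadly expressed models the shares were 20.9%, 9.04%, 3.34%, 1.20%, 0.323% and 0.262% in the same order. The chi-square per degree of freedom between the 2 libraries over the members ran from 4.06 in leaf to 380.02 in bud, so no pair agreed within counting noise.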

How the data were processed

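The authors deposited whole-number read counts per gene model, not normalised, and FPKM values for the same 31672 models and 12 libraries. Per the labels' protocols, RNA was taken with a column kit and libraries were made with a SMARTER kit for mRNA. Aligner, counter, strand setting and gene annotation are details not given in the sources used here. Genome builds in the submitters' processing notes are of mouse, not of an orchid. Coding length was the median over libraries of the count divided by the product of FPKM and library total, scaled to bp; it varied by at most 0.000801 bp and was a multiple of 3 in all 22389 models with a count.

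Counts were fitted with edgeR 4.0.16 in R 4.3.3 (quasi-likelihood, filterByExpr, TMM, a mean per tissue, 6 residual degrees of freedom) on the whole table, with Benjamini-Hochberg adjustment over the 19123 models tested. DESeq2 1.42.0 and limma 3.58.1 were alternatives, as was a loess trend on log2 length (span 0.3). Standard errors are the log2 fold change over the square root of F. The fits were tested on simulated data.

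Besides the members named for a comparison, the text names the 5 highest by median FPKM, 1 per tissue with the largest ratio to the next tissue, the 3 with the smallest range, the 3 shortest and equal-length neighbours. Members, lists and rules were chosen with earlier results of these data known. The groups by length and the share without each library's most abundant member were added after seeing the data. Replicate numbers were not taken as pairs.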

Additional observations from a re-analysis of the deposited data

How the results depend on the processing

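Floral against vegetative calls among the 200 members (124 higher, 10 lower) lay between 104 and 127 higher and between 9 and 13 lower in all alternatives but removal of the length trend, which gave 41 and 35. Scaling by total counts shifted the median over all tested models to -0.19 from 0.05 and the members' median to 1.16 from 1.42, so the distance stayed at 1.36. Members passing the test for any tissue difference (169) lay between 154 and 180.

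Removal of the length trend also gave 7 higher and 29 lower for bud against petal and labellum (14 and 19 with all steps as reported). It gave 2 lower for labellum against petal (4) and 24 lower for root against stem and leaf (39). Over all 19123 tested models these counts were 2240 and 1176 for bud, 277 for labellum and 3766 for root. Total counts gave 22 higher and 15 lower for bud, 2 lower for labellum, and 12 higher and 6 lower for stem against leaf (9 and 11). Over all tested models they gave 2724 and 896, 222, and 1645 and 1248 in this order. Limma-voom with a weight per tissue gave 8 higher and 10 lower for bud, 2 higher and 15 lower for labellum, and 18 lower for stem. Over all tested models it gave 1492 and 631, 801 and 765, and 2606 in this order. Limma on log2(FPKM + 1) and log2(FPKM + 0.1) each gave 2 lower for labellum and 13 higher and 6 lower for stem. Over all tested models the first gave 231, 1599 and 1324 in this order, and the second 227, 1741 and 1280. DESeq2 gave 13 lower for labellum, against 697 over all tested models. Fits of the compared tissues alone gave 9 higher for bud, 8 lower for labellum and 19 lower for stem. Over all models tested in those fits the counts were 1822 of 17653, 494 of 16585 and 2428 of 17490.

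With single libraries left out, members called ran from 8 to 25 higher for bud, 0 to 3 higher and 0 to 11 lower for labellum, and 1 to 10 higher and 4 to 13 lower for stem. A tissue left with 1 library is assumed to vary like the others, and the counts over all tested models moved with single libraries as well. The replicate block gave 0 higher for labellum, 7 lower for stem against leaf and 164 members for any difference. It changed no other count by over 1.5 times. The replicate differences of 15 pairs of tissues correlated between -0.351 and 0.164, with 1 above 0.1. The labels do not say whether the numbers pair the libraries, and a single difference per tissue cannot decide it.

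The members' share of counts without the member of highest median FPKM was 1.65% in root, 0.824% in stem and 1.55% in leaf. It was 1.92% in bud, 2.08% in petal and 1.57% in labellum, so root lay above labellum. Without the most abundant member of each library, a step added after seeing the data, the share was 1.11% in root and 0.964% in leaf. In the other tissues it was the same. As a share of summed FPKM it was 7.85% in root, 6.20% in stem, 8.42% in leaf, 8.40% in bud, 9.18% in petal and 7.16% in labellum, so the order of floral and vegetative tissues is not kept on that scale. Without root replicate 2 in the FPKM criterion, 192 members stayed, and the share was 1.32% in stem, 1.72% in leaf and 2.63% in petal. By TMM-scaled CPM 85 members were highest in bud and 61 in petal, against 101 and 36 by FPKM. Of 18 named differences, 12 kept their call in every alternative, none changed sign, and the 6 others are given with their losses in the report. Depth limits root replicate 2, where 26 members had under 10 counts.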
